A study of Mus musculus with 6 samples.

Results

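β-catenin, the transcription factors it binds and the complex that degrades it form the intracellular core of the canonical Wnt pathway. In cells sorted as hair follicle stem cells (HFSCs), 10 genes of this core were read. They were Ctnnb1 (β-catenin), the TCF/LEF genes Lef1, Tcf7, Tcf7l1 and Tcf7l2, the scaffold genes Axin1, Axin2 and Apc, and the kinase genes Gsk3a and Gsk3b. The genes were chosen by symbol for their role, with earlier results of these data known. Each symbol matched 1 gene of the 56941 in the table of read counts. RNA was sequenced from CD34+/α6-integrin+ cells sorted from dorsal skin of female B6;129S4-Dab2tm1Cpr/J mice at postnatal day 68, as 3 biological replicates of each genotype, WT and Dab2-cKO. Mice of both genotypes carried the floxed Dab2 alleles (Dab2fl/fl) and received intraperitoneal tamoxifen at 75 mg/kg on 5 consecutive days. The WT mice lacked the Cre transgene and the Dab2-cKO mice carried it under the K14 promoter, which is active in basal keratinocytes and not in every cell of the skin. Dab2 encodes an endocytic adaptor protein, and the comparison asks what its loss from the epidermis changes in HFSCs.

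In the resting state β-catenin is held by AXIN and APC, phosphorylated by casein kinase 1 and GSK3, and sent to the proteasome. A Wnt signal stops this destruction, and β-catenin enters the nucleus, where it binds TCF/LEF proteins on their target genes. LEF1 and TCF7 act mainly as activators with β-catenin, TCF7L1 (also named TCF3) acts mainly as a repressor and is known from the quiescent bulge of the hair follicle, and TCF7L2 (TCF4) can do either. In the follicle, LEF1 is known from the hair germ, the matrix and the precursor cells of the hair shaft.

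The libraries held between 7040032 and 9518564 counts in WT and between 9374373 and 11696457 in Dab2-cKO. The floxed gene itself, Dab2, stood at 327 ± 15.4 normalized counts (SD, n = 3) under the WT label and at 1375 ± 68.2 under the Dab2-cKO label (log2 fold change 2.08), so it was higher where deletion was labelled. The genotype names below are therefore those of the library labels, and each direction rests on them. The share of counts in the top 100 genes was 33.1 to 33.9% for WT and 44.5 to 46.6% for Dab2-cKO, and that of mitochondrially encoded genes 13.0 to 14.4% and 19.1 to 20.3%. Ribosomal RNA genes, the mitochondrial ones included, took 15.3 to 17.0% and 22.3 to 24.2%. The composition of the sorted samples also differed. The summed level of 14 hair shaft and inner root sheath markers was 25927 to 31147 CPM (counts scaled to a common library size) in WT and 263.7 to 269.8 in Dab2-cKO, and that of 13 hair germ and matrix markers was 820 to 924 against 197 to 217. The summed level of 12 fibroblast markers was 11204 to 13569 in WT and 39251 to 41363 in Dab2-cKO, and that of 10 endothelial markers was 202 to 235 against 769.9 to 782.0. The summed level of 15 bulge markers was 2727 to 3078 in WT and 4206 to 4286 in Dab2-cKO. It lay below the fibroblast sum in both groups and below the shaft and sheath sum in WT, so the levels below are those of mixed samples. Of the 15 bulge markers 9 were higher in Dab2-cKO, Cd34 (log2 fold change 1.80), Nfatc1 (1.32) and Itga6 (0.55) among them. Another 5 were lower, Lhx2 (-1.43) and Sox9 (-1.45) among them. By the same rule, given below, 16.8% of all genes tested were higher and 11.5% lower. Among genes with a mean of at least 100 normalized counts these shares were 37.6% and 22.8%. In bulk RNA, fewer cells of a type and less RNA per cell cannot be told apart.

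Values are normalized counts, that is, counts put on the scale of the mean effective library, and a gene was called when its adjusted p from the quasi-likelihood test of edgeR, over all 32149 genes tested, was under 0.05. By this rule 7 of the 10 genes were called. Ctnnb1, Lef1, Tcf7, Axin2, Apc and Gsk3b were lower in the libraries labelled Dab2-cKO, Tcf7l1 was higher (though -0.055 on the log2 scale under scaling by total counts alone), and Tcf7l2, Axin1 and Gsk3a were not called. The split was 7 lower and 0 higher with upper-quartile scaling, where 5561 of all genes were called lower and 4281 higher. With scaling by total counts alone it was 9 lower and 0 higher, where 11168 of all genes were called lower and 2686 higher. The split was 4 lower and 0 higher with DESeq2, beside 2805 lower and 4619 higher over all genes. In a test against a 1.5-fold change it was 3 lower and 0 higher, beside 1136 and 2222. The lower calls were 3 when WT replicate 2, WT replicate 3 or Dab2-cKO replicate 3 was left out. Over all genes 3125, 3091 and 3602 were then called lower, and 5322, 4905 and 4800 higher. The rule called 28.2% of all genes tested, 11.5% as lower and 16.8% as higher. All 10 genes had a mean of at least 100 normalized counts. Among the 10846 genes with such a mean the share called was 60.5%, with 22.8% lower and 37.6% higher. The share of the 10 genes called in either direction lay near that of genes counted as deeply. By direction it did not, with 6 of the 10 lower and 1 higher, a split that changed with the setting as given above. The 10 genes were chosen with earlier results of these data known, so these counts are descriptions and no test against the background. The sizes of the differences were unequal. Lef1 was 8.50-fold lower, Tcf7 2.00-fold and Ctnnb1 1.70-fold, and the other 7 genes differed by at most 1.29-fold. Values of the 3 libraries of each group did not overlap for 6 of the 10 genes, against 38.3% of all genes tested and 67.8% of those with a mean of at least 100.

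**Figure D1:**
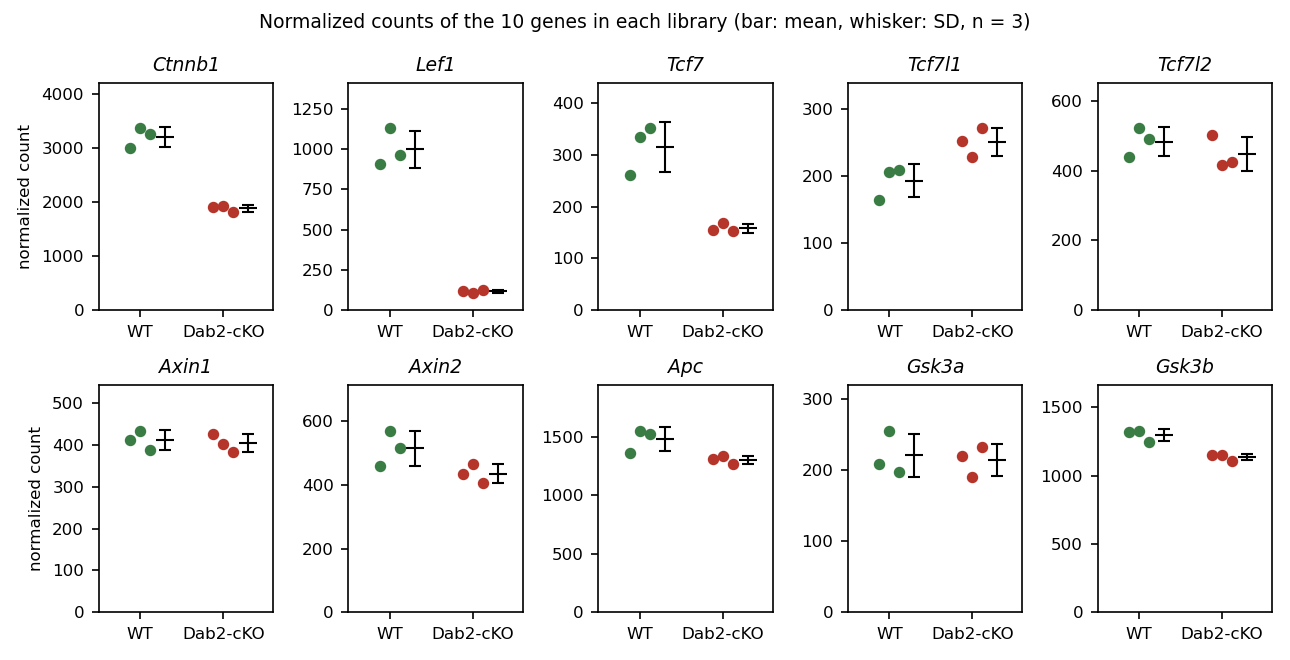
Normalized counts (vertical axes, each from 0) of the 10 genes in the 3 libraries labelled WT (green) and the 3 labelled Dab2-cKO (red), with the mean as a bar and the SD as a whisker. Ctnnb1, Lef1 and Tcf7 show wide gaps between the groups, whereas the points of Tcf7l2, Axin1, Axin2 and Gsk3a overlap.

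Ctnnb1 (ENSMUSG00000006932, chromosome 9, 120757422 to 120789579, plus strand, GRCm39) encodes β-catenin, which is the signal carrier of the pathway and also a structural protein of the adherens junction. It had 2999.6, 3367 and 3259 normalized counts in WT and 1918, 1935 and 1816 in Dab2-cKO. The lowest WT library lay far above the highest Dab2-cKO library. The mean fell from 3209 ± 189 to 1889.5 ± 64.7, a change of -41.1% and a log2 fold change of -0.76 (SE 0.07, 95% interval -0.90 to -0.62, edgeR adjusted p = 4.42e-15). It was called under each of the 14 alternative settings, with log2 fold changes from -1.19 to -0.72. Exons of Ulk4 and of a long noncoding gene on the opposite strand cover 11.4% of the exon bases of Ctnnb1.

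Ctnnb1 was the most abundant of the 10 genes in both groups when levels were divided by exon length, with 393 ± 23.1 normalized counts per kb in WT and 231 ± 7.92 in Dab2-cKO. Set against the summed level per kb of the 5 destruction complex genes inside the same library, Ctnnb1 stood at 0.946, 0.955 and 1.02 in WT and at 0.636, 0.652 and 0.623 in Dab2-cKO. This ratio is free of the scaling between libraries, and the groups did not overlap. Against the summed level of the 4 TCF/LEF genes it stood at 1.41 ± 0.08 in WT and 1.53 ± 0.09 in Dab2-cKO, and here the groups overlapped. Jup, which encodes plakoglobin, the close relative of β-catenin in junctions, fell less (log2 fold change -0.25, adjusted p = 0.00532), and its level per kb relative to Ctnnb1 was 0.753 ± 0.036 in WT and 1.08 ± 0.07 in Dab2-cKO.

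The 250 bases before the start of the canonical transcript were read for the 10 genes, since β-catenin acts on DNA through sites that these factors bind, here CTTTGAA and its variants with AT, TA or TT as the last 2 letters. Both strands were searched in the genome build GRCm39. The activator-type genes Lef1 (chr3:130903669-130903918, plus strand) and Tcf7 (chr11:52174620-52174869, minus strand) held none of these sites in that window. Tcf7l1 (chr6:72766590-72766839, minus strand) held 1, on the strand opposite to the gene, and among the other 7 genes Axin2 (chr11:108811388-108811637, plus strand) was the only one to hold 1. A site is present in 14.6% of the 21654 promoters of that length. The sequences of these 4 genes are shown for the contrast of activator-type and repressor-type factors and for the feedback gene. The Axin2 transcript used starts inside the annotated gene, whose first base is 108811169. In the sequences, given 5′ to 3′ along the gene's strand, capitals mark the site.
Lef1: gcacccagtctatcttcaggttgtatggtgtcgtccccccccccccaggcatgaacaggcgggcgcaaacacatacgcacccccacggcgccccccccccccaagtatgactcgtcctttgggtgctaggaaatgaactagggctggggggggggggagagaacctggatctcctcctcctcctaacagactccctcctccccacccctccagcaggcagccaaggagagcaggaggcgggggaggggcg
Tcf7: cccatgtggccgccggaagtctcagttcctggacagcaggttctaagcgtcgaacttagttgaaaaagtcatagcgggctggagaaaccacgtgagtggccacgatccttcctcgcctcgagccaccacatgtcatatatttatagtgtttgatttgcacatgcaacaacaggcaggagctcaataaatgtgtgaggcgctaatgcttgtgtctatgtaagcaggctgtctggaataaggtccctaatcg
Tcf7l1: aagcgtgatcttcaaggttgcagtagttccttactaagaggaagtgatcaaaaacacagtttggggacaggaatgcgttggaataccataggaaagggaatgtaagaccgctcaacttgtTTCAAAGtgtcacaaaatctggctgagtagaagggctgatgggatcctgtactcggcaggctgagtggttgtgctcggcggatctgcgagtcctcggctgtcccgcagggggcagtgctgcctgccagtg
Axin2: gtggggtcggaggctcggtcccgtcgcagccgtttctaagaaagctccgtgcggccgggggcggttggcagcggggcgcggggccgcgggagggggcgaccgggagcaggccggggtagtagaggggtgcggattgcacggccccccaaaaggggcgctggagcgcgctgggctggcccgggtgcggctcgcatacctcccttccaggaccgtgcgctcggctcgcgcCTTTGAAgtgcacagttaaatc
The site before Axin2 begins 22 bases before the start and reads along the gene. The site before Tcf7l1 reads against the gene, and its end farther from the gene lies 130 bases before the start. The shorter core CTTTG is present in 49.3% of all promoters, so its single match before Lef1 is of a common kind. The GC content was 65.6% before Lef1, 49.6% before Tcf7, 52.0% before Tcf7l1 and 72.0% before Axin2, against a median of 53.2% over all promoters. These are matches of letters only and say nothing of binding.

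Lef1 (ENSMUSG00000027985, chromosome 3, 130903919 to 131018005, plus strand) had 907, 1129 and 966 normalized counts in WT and 120.2, 107 and 126 in Dab2-cKO, from raw counts of 815 to 1251 and of 93 to 126. Every Dab2-cKO library was far below every WT library. The mean fell from 1001 ± 115 to 118 ± 9.65, which was 8.50-fold lower, with a log2 fold change of -3.09 (SE 0.10, 95% interval -3.29 to -2.89, edgeR adjusted p = 1.96e-38). Per kb of exon the level went from 107 ± 12.3 to 12.6 ± 1.03. In Dab2-cKO this was just under 12.8, the level below which 95% of 1742 genes for smell, taste and pheromone receptors lay, whose median was 5.00 per kb and which these cells should not express. Lef1 was called under all 14 alternatives (-3.51 to -2.98). The noncoding gene Lef1os1 on the opposite strand shares 16.3% of the exon bases of Lef1 and was also lower (72.3 to 11.2 normalized counts, log2 fold change -2.66).

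Tcf7 (ENSMUSG00000000782, chromosome 11, 52143107 to 52174619, minus strand), the other activator-type gene, had 261, 334 and 351 normalized counts in WT and 154, 168 and 152 in Dab2-cKO. The groups did not overlap, and the first WT library was the lowest of its group. The mean was 315 ± 48.1 in WT and 158 ± 8.50 in Dab2-cKO, 2.00-fold lower (log2 fold change -1.001, SE 0.12, 95% interval -1.24 to -0.76, edgeR adjusted p = 1.24e-10). The call held under all 14 alternatives, with values from -1.43 to -0.91. Lef1 fell further than Tcf7, and the level per kb of Lef1 relative to Tcf7 inside a library went from 1.32 ± 0.16 to 0.307 ± 0.040.

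Lef1 and Tcf7 are also expressed by T cells, hair matrix cells, dermal papilla cells, melanocytes and some endothelial cells, and the markers of these types were read beside them. For comparison, 11.5% of all genes tested were called lower and 16.8% higher. Among genes with a mean of at least 100 normalized counts these shares were 22.8% and 37.6%. Of the 13 hair germ and matrix markers 12 were lower and 0 higher in the libraries labelled Dab2-cKO. Of the 10 melanocyte markers 9 were lower and 0 higher, and their summed level was 449 to 493 CPM in WT and 182 to 198 in Dab2-cKO. Of the 15 T cell markers 5 were higher, 0 lower and 10 not called. The higher ones were Thy1, Trbc2 (log2 fold change 1.15), Cd3g (1.11), Cd4 (0.86) and Zap70 (0.75). Cd3d (-0.51), Lck (0.12) and Trac (0.12) were among those not called. The summed level of the 15 T cell markers was 84.4 to 88.1 against 148.2 to 159.8. Much of that rise was Thy1 (249 ± 23.2 to 629 ± 51.1 normalized counts), which also stands in the fibroblast list, whose 12 markers were all higher. Without Thy1 the summed T cell level was 59.0 to 60.7 against 78.5 to 89.0. The 12 papilla markers had 3 lower and 2 higher, with a summed level of 267 to 284 against 252 to 259, and the 10 endothelial markers were all higher. In none of these lists was a marker at 0 in all libraries. The part of these cell types in the levels of Lef1 and Tcf7 was not tested.

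Tcf7l1 (ENSMUSG00000055799, chromosome 6, 72603354 to 72766589, minus strand), the repressor-type gene, had 165, 206 and 209 normalized counts in WT and 253, 229 and 272 in Dab2-cKO. The lowest Dab2-cKO library was above the highest WT library by a narrow margin. The mean was 193 ± 24.8 in WT and 251 ± 21.3 in Dab2-cKO, and the log2 fold change was 0.37 (SE 0.12, 95% interval 0.13 to 0.61, edgeR adjusted p = 0.0132), but it was -0.055 when libraries were scaled by their total counts alone. That call held under 7 of the 14 alternatives. It was lost with DESeq2 (adjusted p = 0.0686), with upper-quartile scaling (log2 fold change 0.23, adjusted p = 0.139), with scaling by total counts (adjusted p = 0.725) and in the test against a 1.5-fold change. It was also lost without WT replicate 1 (0.28, adjusted p = 0.0999), without Dab2-cKO replicate 1 (0.35, adjusted p = 0.0503) and without Dab2-cKO replicate 3 (0.29, adjusted p = 0.117).

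Tcf7l2 (ENSMUSG00000024985, chromosome 19, 55730188 to 55922091, plus strand), which can activate or repress, had 439, 521 and 490.4 normalized counts in WT and 503, 417 and 424 in Dab2-cKO. These values overlapped, with 1 Dab2-cKO library inside the WT range. The log2 fold change was -0.11 with a 95% interval from -0.29 to 0.074 (edgeR adjusted p = 0.446). It was called lower with upper-quartile scaling (-0.25, adjusted p = 0.0160) and with scaling by total counts alone (-0.54, adjusted p = 6.35e-08).

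**Figure D2:**
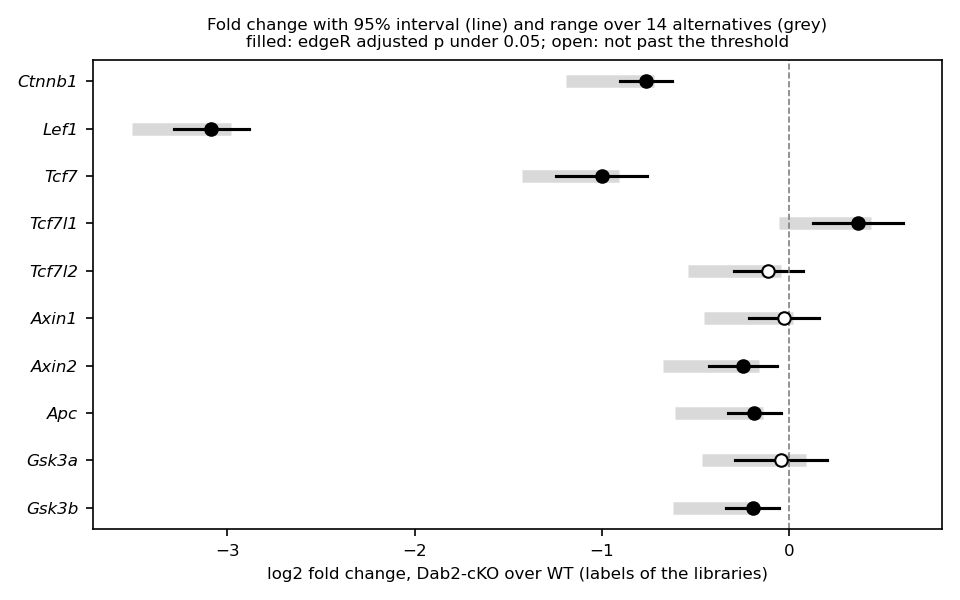
Log2 fold change of the libraries labelled Dab2-cKO over those labelled WT (horizontal axis) for the 10 genes, with the 95% interval as a line and the range over 14 alternative settings as a grey bar. Filled points passed an edgeR adjusted p under 0.05. Lef1 (-3.09), Tcf7 (-1.001) and Ctnnb1 (-0.76) lie left of 0 throughout, whereas the grey bar of Tcf7l1 (0.37) reaches across 0 to -0.055 with scaling by total counts alone.

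The contrast of activator-type and repressor-type genes was taken inside each library, where scaling cancels, and is given without a test. The log2 ratio of Lef1 plus Tcf7 over Tcf7l1, each per kb of exon, was 2.38, 2.40 and 2.28 in WT and 0.13, 0.33 and 0.03 in Dab2-cKO. The groups were far apart beside their spread. The mean was 2.35 ± 0.06 in WT, which is 5.11 to 1 on the linear scale, and 0.16 ± 0.15 in Dab2-cKO, which is 1.12 to 1. The difference of -2.19 lay between -2.27 and -2.12 when any 1 library was left out. With Lef1 alone in the numerator the difference was -3.47 and with Tcf7 alone it was -1.37, so both genes entered it. With Tcf7l2 counted beside Tcf7l1 it was -1.92.

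As shares of the summed level per kb of the 4 TCF/LEF genes, Lef1 took 39.6, 39.6 and 35.7% in WT and 8.16, 7.87 and 8.84% in Dab2-cKO. Its place as the leading TCF/LEF gene in WT was taken in Dab2-cKO by Tcf7l2 and Tcf7l1. Tcf7l1 took 12.9, 12.9 and 13.9% in WT and 30.7, 30.2 and 34.1% in Dab2-cKO, and Tcf7l2 took 19.3 ± 0.57% and 32.8 ± 2.41%. Tcf7 kept a similar share, 29.2 ± 2.07% against 27.2 ± 2.48%, with overlapping libraries. The summed level itself was 280.3 ± 31.1 normalized counts per kb in WT and 152 ± 6.04 in Dab2-cKO. The larger shares of Tcf7l1 and Tcf7l2 thus stood beside a smaller total, and the level of Tcf7l2 was not called as changed. The sorted samples also differed in their cell type markers, and the part of this in the shares and the ratio was not tested.

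**Figure D3:**
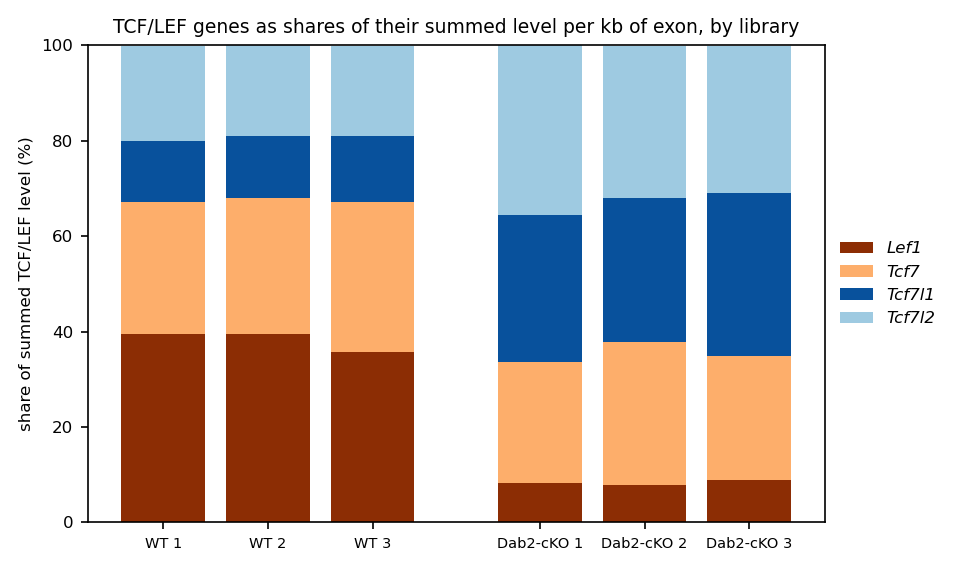
Share (%) of each TCF/LEF gene in the summed normalized count per kb of exon of Lef1, Tcf7, Tcf7l1 and Tcf7l2, 1 bar for each library by its label. Lef1 takes 35.7 to 39.6% under the WT label and 7.87 to 8.84% under the Dab2-cKO label, and the share of Tcf7 is similar throughout.

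Among the scaffolds of the destruction complex, Axin1 (ENSMUSG00000024182, chromosome 17, 26350235 to 26414789, plus strand) encodes the general scaffold that brings the kinases to β-catenin. It had 412, 433 and 388 normalized counts in WT and 425, 402 and 383 in Dab2-cKO, and the groups overlapped. The log2 fold change was -0.026 with a 95% interval from -0.21 to 0.16 (edgeR adjusted p = 0.890). Scaling by total counts alone gave -0.45 (adjusted p = 1.08e-05), and leaving out WT replicate 2 turned the direction (0.024).

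Axin2 (ENSMUSG00000000142, chromosome 11, 108811169 to 108841609, plus strand) encodes a scaffold that is itself a widely used target of Wnt signaling, so that it closes a feedback loop. It had 459, 569.7 and 514 normalized counts in WT and 433, 465 and 405 in Dab2-cKO. The highest Dab2-cKO library lay above the lowest WT library. The mean was 514 ± 55.5 against 434 ± 29.9 with a log2 fold change of -0.25 (SE 0.09, 95% interval -0.43 to -0.06, edgeR adjusted p = 0.0329), whereas the exact 2-sided permutation test over the 6 libraries gave p = 0.2, where 0.1 is the smallest it can give with 3 against 3. The call was lost with DESeq2 (adjusted p = 0.136), in the test against a 1.5-fold change, and without WT replicate 2 (-0.16, adjusted p = 0.262), WT replicate 3 (-0.24, adjusted p = 0.104) or Dab2-cKO replicate 3 (-0.22, adjusted p = 0.10). Axin2 relative to Axin1 per kb stood at 1.24, 1.47 and 1.48 in WT and at 1.14, 1.29 and 1.18 in Dab2-cKO, which overlapped.

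Apc (ENSMUSG00000005871, chromosome 18, 34353942 to 34455605, plus strand) encodes the large scaffold that presents β-catenin for degradation. It had 1362, 1550.1 and 1524 normalized counts in WT and 1311, 1332 and 1264 in Dab2-cKO. The groups did not overlap, but the gap between the nearest libraries was small. The log2 fold change was -0.18 (SE 0.07, 95% interval -0.33 to -0.04, edgeR adjusted p = 0.0412). The call held under 8 of the 14 alternatives and was lost with DESeq2 (adjusted p = 0.0864), with the replicate number as a block (adjusted p = 0.0545), in the test against a 1.5-fold change, and without WT replicate 2 (-0.14), WT replicate 3 (-0.15) or Dab2-cKO replicate 3 (-0.18).

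Of the GSK3 kinases, which phosphorylate β-catenin and mark it for destruction, Gsk3b (ENSMUSG00000022812, chromosome 16, 37909363 to 38066446, plus strand) had 1316, 1328 and 1247 normalized counts in WT and 1148, 1148 and 1108 in Dab2-cKO. The groups did not overlap. The log2 fold change was -0.19 (SE 0.07, 95% interval -0.33 to -0.05, edgeR adjusted p = 0.0315), a change of -12.5%. The call held under 10 of the 14 alternatives and was lost in the test against a 1.5-fold change and without WT replicate 2 (-0.17, adjusted p = 0.0694), WT replicate 3 (-0.21, adjusted p = 0.0662) or Dab2-cKO replicate 3 (-0.20, adjusted p = 0.0604).

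Gsk3a (ENSMUSG00000057177, chromosome 7, 24927682 to 24937564, minus strand) had 209, 255 and 197 normalized counts in WT and 220.3, 189.9 and 233 in Dab2-cKO, with overlapping groups. The log2 fold change was -0.042 with a 95% interval from -0.29 to 0.20 (edgeR adjusted p = 0.864). Scaling by total counts alone gave -0.47 (adjusted p = 0.000799), and the direction turned without WT replicate 2 (0.089) or Dab2-cKO replicate 2 (0.010). The noncoding gene 9130221H12Rik on the opposite strand shares 29.6% of the exon bases of Gsk3a. Whether the counting used the strand is not given in the sources used here, so reads of such overlapping genes could have been shared or left out. Per kb, Gsk3b exceeded Gsk3a by 2.14 ± 0.23 times in WT and 1.92 ± 0.24 times in Dab2-cKO, with overlapping libraries.

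In order of level per kb of exon, the libraries labelled WT ran from Ctnnb1 through Gsk3b (132 ± 4.42) and Lef1 (107 ± 12.3) to a run of Apc, Tcf7, Axin2, Gsk3a, Tcf7l2 and Axin1 (82.3 down to 53.1), in which the library ranges of neighbours overlapped, and ended with Tcf7l1 (37.1 ± 4.75). In the libraries labelled Dab2-cKO, Ctnnb1 and Gsk3b (115 ± 2.36) were again first and were followed by Apc (72.5 ± 1.96). Axin2, Gsk3a, Axin1, Tcf7l2 and Tcf7l1 came next (62.7 down to 48.1) with neighbours that overlapped. Tcf7 (41.2 ± 2.21) and Lef1 (12.6 ± 1.03) were last. The highest Tcf7 library (43.7) lay only just under the lowest Tcf7l1 library (43.9), whereas Lef1 was far below Tcf7. Lef1 thus moved from the third place to the last, while Tcf7l1 left the last place.

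The other genes of the pathway were read in 4 lists by role. The genes called, of those tested, were 8 lower and 2 higher of 30 in β-catenin turnover, 11 lower and 5 higher of 25 among nuclear cofactors, 9 lower and 4 higher of 15 in the adherens junction, and 12 lower and 0 higher of 20 among feedback and target genes. Of all genes tested 28.2% were called (11.5% lower, 16.8% higher). Of those with a mean of at least 100 normalized counts 60.5% were called (22.8% lower, 37.6% higher). Each list held genes above and below that mean, so neither share is matched to a list. The median log2 fold changes were -0.11, -0.25, -0.37 and -0.42 in that order, and the median over all genes tested was -0.02. Nkd1 and Nkd2 stand in the first and the last list. With scaling by total counts alone the splits were 23 lower and 0 higher, 18 and 1, 11 and 1, and 15 and 0, since that scaling moved the median of all genes by -0.43. The lists were written with results of these data known, and the counts are descriptions. The sorted samples also differed in their cell type markers, as given above, and the part of this in the 4 lists was not tested.

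**Figure D4:**
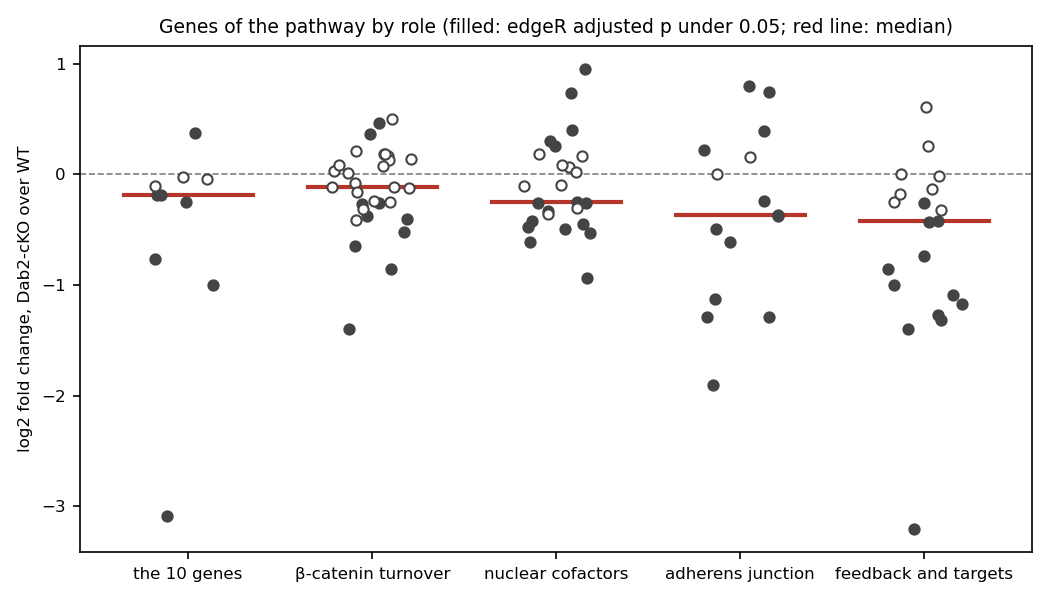
Log2 fold change of the libraries labelled Dab2-cKO over those labelled WT (vertical axis) for the 10 genes and for the genes tested of 4 pathway lists, 1 point for each gene, with filled points past an edgeR adjusted p under 0.05 and the median as a red line. The medians of the lists run from -0.11 (turnover) to -0.42 (feedback and targets), and Lef1 (-3.09) and Bambi (-3.21) are the lowest points.

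In the turnover list the largest falls were those of Nkd2 (-1.40), a Dishevelled antagonist, Csnk1e (-0.85) and Csnk1g3 (-0.65), which are casein kinase 1 genes, and Ppp2cb (-0.52), a catalytic subunit of the phosphatase PP2A. Csnk1a1, the priming kinase of β-catenin, fell by 0.38 on the log2 scale. Ppp2r5a (0.46) and Ppp2r5c (0.37), which encode regulatory subunits of PP2A, rose, but stood at 0.035 and -0.062 with scaling by total counts alone and were then not called. Of the Dishevelled genes, which carry the Wnt signal to the destruction complex, Dvl2 fell (-0.40, adjusted p = 0.0147), while Dvl1 (0.18) and Dvl3 (0.015) were not called. Btrc and Fbxw11, which encode the ubiquitin ligase adaptors that recognize phosphorylated β-catenin, were not called (0.19 and 0.16).

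Among the cofactors, the Groucho-type corepressor genes, whose products bind TCF/LEF proteins in the absence of β-catenin, did not move together. Tle3 fell from 1988 ± 151 to 1039 ± 51.6 normalized counts (log2 fold change -0.94), Tle1 rose (0.30, but -0.12 with scaling by total counts alone), and Tle2 and Tle4 were not called. Tle5, a short family member that lacks the repression domain, rose from 553 ± 26.5 to 1072 ± 27.8 (0.95, and 0.53 with total counts). Smarca4 (-0.61), a chromatin remodeling ATPase, and the kinase genes Hipk2 (-0.53) and Nlk (-0.49) fell. Pygo1 (0.73), a coactivator that reaches β-catenin through BCL9, and Ctnnbip1 (0.40), an inhibitor that keeps β-catenin from TCF proteins, rose, but with total counts neither was called (0.30 and -0.025). Of the corepressor pair, Ctbp1 rose (0.26, but -0.17 with total counts) and Ctbp2 fell (-0.48).

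In the adherens junction, where β-catenin links cadherins to α-catenin, Cdh3, the P-cadherin of the hair germ and matrix and also a member of that marker list, fell from 972 ± 75.4 to 258 ± 27.2 normalized counts (-1.91). Nectin4 (-1.29), Nectin1 (-1.29) and Nectin2 (-1.13), which are adhesion receptors of the same junction, fell as well. Afdn (-0.61), Cdh1 (-0.50, E-cadherin), Ctnnd1 (-0.38) and Ctnna1 (-0.37, α-catenin) also fell. Ctnna1 went from 2740 ± 197 to 2118 ± 7.64 normalized counts. Ctnna3 (0.80, from 103 to 179 normalized counts), Ctnnal1 (0.39) and Vcl (0.22), which encode α-catenin relatives and vinculin, rose. With scaling by total counts alone, however, Ctnna3 stood at 0.37 and was still called, Ctnnal1 stood at -0.038 and Vcl was called lower (-0.21). Ctnnb1 itself (-0.76) fell less than Cdh3 and the nectin genes named, and more than Afdn, Cdh1, Ctnnd1 and Ctnna1.

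Of the feedback and target genes, Bambi, a pseudoreceptor of the BMP and TGF-β pathways, fell most (547.7 ± 41.4 to 59.3 ± 4.39 normalized counts, -3.21). Nkd2 (-1.40), Lgr5 (-1.32), an R-spondin receptor that is also a bulge marker, and Wif1 (-1.27), a secreted Wnt inhibitor, followed. Axin2, the feedback scaffold described above, was 1.19-fold lower, and Myc (-0.013) and Apcdd1 (-0.13) were not called. Fgf20 had too few counts to be tested.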

How the data were processed

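RNA was measured in 6 libraries of sorted HFSCs, 3 of each genotype label. The authors deposited raw counts per gene. The submitters' processing notes name FastQC 0.11.9, fastp 0.23.4, HISAT2 2.2.1, SAMtools 1.6, featureCounts 2.0.6, DESeq2 1.42.0 and the build GRCm39. Whether the counting used the strand is not given in the sources used here. The deposited table of the authors' comparison (scaled counts, fold changes and p-values) was not used. The columns named FL-FL were taken as Dab2-cKO from the title of the series, although both genotypes carry floxed alleles.

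Counts were filtered, scaled by TMM and compared by the 2-sided quasi-likelihood test of edgeR 4.0.16 in R 4.3.3, with Benjamini-Hochberg adjustment over all genes tested. SE is the size of the log2 fold change over the root of its F. Intervals are at 95%. The p-values set the difference between the groups against the spread between the labelled replicates, which the fit moderates over all genes. Gene models were from GENCODE vM39 (56323 of 56941 genes matched). Skp1, Tle5 and Krt85 were matched by gene identifier. The code was tested on simulated data. The 10 genes, 4 pathway lists and 8 marker lists were chosen with earlier results of these data known. Named genes were the 10, Dab2, up to 4 called genes per direction and list with a mean of at least 100 normalized counts, their antagonists or partners, and the 5 genes nearest in pattern to Lef1 and to Tcf7l1. Marker genes beside these were named after their values were seen. Alternatives were DESeq2 1.42.0, other scalings and filters, a replicate block, a test against a 1.5-fold change and leaving out each library.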

Additional observations from a re-analysis of the deposited data

How the results depend on the processing

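Lef1, Tcf7 and Ctnnb1 were called lower under all 14 alternatives, and in 111 cases a single gene kept its direction and its side of the threshold, with 21 calls lost in the same direction, 4 gained and 4 directions reversed, of which that of Tcf7l1 under scaling by total counts was 1 further lost call. The 10 genes gave 6 lower and 1 higher. The higher call was 0 with DESeq2, upper-quartile scaling, scaling by total counts and the test against a 1.5-fold change, and 0 to 1 when 1 library was left out (0 without WT replicate 1, Dab2-cKO replicate 1 or Dab2-cKO replicate 3). The lower calls were 3 in the test against a 1.5-fold change and 3 to 6 when 1 library was left out (3 without WT replicate 2, WT replicate 3 or Dab2-cKO replicate 3). Upper-quartile scaling moved the median of all genes by -0.14 and scaling by total counts by -0.43. The split of the 10 genes was then 7 lower and 0 higher, and 9 lower and 0 higher. Relative to the median of all genes Tcf7l1 was 0.40 higher under both, while its log2 fold change under total counts reversed to -0.055. With 1 library left out, Axin1 ran from -0.084 to 0.024, reversed without WT replicate 2, and Gsk3a from -0.12 to 0.089, reversed without WT replicate 2 and without Dab2-cKO replicate 2 (0.010), and none of these was called.

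Over all genes, 3682 were lower and 5387 higher, against 5561 and 4281 with upper-quartile scaling, 11168 and 2686 with total counts, and 1136 and 2222 in the test against a 1.5-fold change. Turnover calls (10) were 18 with upper-quartile scaling (16 lower, 2 higher), 23 with total counts (23 lower, 0 higher), 18 when the filter was a mean count of 50 or more, and 2 in the test against a 1.5-fold change. That test left 2 cofactor, 4 junction and 7 target calls. With upper-quartile scaling and with total counts the cofactors split into 13 lower and 3 higher and into 18 and 1, against 11 and 5, and the junction genes with total counts into 11 and 1, against 9 and 4. The difference in the activator to repressor log2 ratio (-2.19) was -2.63 on raw counts, -1.92 with Tcf7l2 added to the denominator, -3.47 with Lef1 alone, -1.37 with Tcf7 alone and -2.45 after subtraction of the receptor gene background. Where no construction shows it, the cause was not tested. Same-numbered libraries deviated together only weakly (correlations 0.02, 0.01 and 0.01, each sample highest with its own number), so the numbers were not read as pairs. The replicate block gave 5 lower and 1 higher of the 10 genes, and 3620 lower and 5347 higher over all genes.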

Other observations

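Among 10530 protein-coding genes with a mean of at least 100 normalized counts, those whose log2 values over the 6 libraries lay nearest to the pattern of Lef1, each gene centred on its WT mean, were 2310007B03Rik (root mean square difference 0.073), Mycn (0.12), Bambi (0.12), Alox8 (0.15) and Tyr (0.20). Mycn, a growth-promoting transcription factor of the Myc family, went from a mean of 414 normalized counts (WT label) to 48.3 (Dab2-cKO label). Tyr, the rate-limiting enzyme of melanin synthesis, stands in the melanocyte marker list and went from 407 to 52.0. The pattern of Tcf7l1 was nearest to those of Klf7 (0.043), Tcf25 (0.047), Clint1 (0.052), Msl3 (0.053) and Pxn (0.055), with log2 fold changes from 0.38 to 0.41. Tcf25 is no member of the TCF/LEF family in spite of its symbol. Many genes with a change of like size have like patterns over 6 libraries.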
